A study of Homo sapiens with 8 samples.

Results

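The mitochondrial ribosomal protein genes were taken as the 73 genes whose own symbol reads MRPL or MRPS followed by a number, out of 18377 genes with a symbol of their own on Affymetrix Human Gene 1.0 ST arrays. They comprised 48 genes of the large subunit (MRPL) and 25 genes of the small subunit (MRPS). They were set by symbol alone, though the choice was made with earlier results of these data known. A549 cells, an established human lung epithelial line, were exposed for 4 hr to photochemically altered (PCA) pollutants, an urban mixture aged by sunlight, in the evening or to primary pollutants (the fresher mixture) in the morning. The reference cells were an evening control and a morning control, which were mock treated in incubator air at the same hours, and RNA was taken 9 hr after exposure in all 4 groups. Each group had 2 arrays. The methods describe 1 exposure period for each mixture, with 4 exposed and 4 unexposed samples, called wells where an assay is described. They call the arrays of a group biological duplicates. Which of the samples went on the arrays, and whether these came from separate plates, is not said. The p-values measure only the spread between the samples on the arrays, which may be technical. The chamber itself and the pollutants in it cannot be told apart in either comparison, and the mixture and the time of day cannot be told apart between them.

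The mitochondrial ribosome translates the few messages encoded by mitochondrial DNA, all of which are components of the respiratory chain or of ATP synthase. Its RNA is mitochondrial, but all of its proteins are encoded in the nucleus, made in the cytoplasm and imported. Many have a counterpart in the bacterial ribosome, whereas others are found only in mitochondria. Promoters of such genes are known to be bound by GABPA (an ETS factor, also called NRF2), NRF1 and YY1.

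Every one of the 73 genes had a signal of at least 30 on all 8 arrays, a level reached by 16715 genes in all (91%). All 11 markers of epithelial cells and A549 were above a signal of 100, against 2 of 5 alveolar type II markers, 1 of 4 blood markers, 0 of 3 endothelial markers and 2 of 4 fibroblast markers. The spread of log2 signals over all probe sets (SD) was 1.98 and 1.99 on the PCA arrays and between 2.04 and 2.07 on the other 6 arrays.

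No mitochondrial ribosomal protein gene changed after the PCA pollutants at the study's limits, which were read here as a Benjamini-Hochberg adjusted p under 0.05 in limma together with a 1.5-fold difference either way. The count was 0 of 73, whereas 617 of 17470 genes tested (3.53%) passed. Without the fold limit, 6 of the 73 (8.22%) passed the adjusted p, with MRPL36 higher and MRPS9, MRPS27, MRPL16, MRPL45 and MRPL53 lower. Over all genes 19.9% passed the adjusted p, 5.72% higher and 14.1% lower. The split between higher and lower genes turned with the scaling. Quantile normalization gave 7 higher and 2 lower, and cyclic loess normalization 6 higher and 2 lower. Scaling to cytoplasmic ribosomal protein genes gave 16 higher and 0 lower. Over all genes, those past both limits were 153 higher and 464 lower in the deposited values. They were 142 and 411 under quantile normalization, 143 and 381 under cyclic loess normalization, and 449 and 191 under the last scaling. That scaling moved the median of all genes to 0.14. The share of all genes past the adjusted p alone is not given here for these 3 scalings. At an unadjusted p under 0.05 the count was 18 (24.7%), with 5 higher (14.5% of all genes) and 13 lower (22.5% of all genes), against 37% of all genes in either direction. An analysis of variance on the same arrays gave 28 of the 73 genes at an unadjusted p under 0.05. This share lay above the 33.4% of all genes, whereas limma's share lay below that of all genes. After adjustment the analysis of variance gave 4, all lower, and none of them reached the fold limit.

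MRPL36, the counterpart of the smallest protein of the bacterial large subunit, was the gene with the highest fold change of the 73. Its log2 signals were 11.44 and 11.55 after the PCA pollutants, against 11.05 and 11.05 in the evening control. In the morning they were 11.09 and 10.91 after the primary pollutants, against 11.27 and 11.05 in the morning control. Both PCA arrays thus lay above the other 6 arrays, whose groups overlapped in the morning comparison. The log2 fold change after the PCA pollutants was 0.44 ± 0.099 (SE, n = 2 arrays per group), a fold change of 1.36, with a limma adjusted p of 0.0215. Leaving out either evening control array or PCA replicate 2 raised this p above 0.05 (up to 0.0996).

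The 5 genes on the lower side code for proteins of both subunits. MRPS9, a protein of the head of the small subunit with a bacterial counterpart, had log2 signals of 7.70 and 7.67 after the PCA pollutants, against 8.10 and 7.97 in the evening control. MRPS27, a pentatricopeptide repeat protein found only in mitochondria, was at 9.93 and 9.93 after the PCA pollutants, against 10.28 and 10.23 in the evening control. In both genes the PCA arrays lay below every other array, including the morning arrays (7.86 to 8.11 for MRPS9 and 10.14 to 10.33 for MRPS27).

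MRPL16 belongs to the conserved core of the large subunit. Its log2 signals were 7.25 and 7.27 after the PCA pollutants, against 7.59 and 7.54 in the evening control. MRPL45, which holds the large subunit at the inner membrane by the tunnel through which new proteins leave, was at 11.53 and 11.63 after the PCA pollutants, against 11.81 and 11.85 in the evening control. MRPL53, a large subunit protein found only in mitochondria, was at 9.73 and 9.72 after the PCA pollutants, against 9.99 and 9.97 in the evening control. In none of these 3 genes did the PCA arrays overlap any other group. MRPL45 fell outside the rule for named genes and was chosen after its values had been seen.

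The log2 fold changes after the PCA pollutants were -0.34 ± 0.078 for MRPS9, -0.33 ± 0.073 for MRPS27, -0.31 ± 0.077 for MRPL16, -0.25 ± 0.071 for MRPL45 and -0.25 ± 0.069 for MRPL53 (SE). The limma adjusted p was 0.0223 for MRPS9, 0.0222 for MRPS27, 0.0319 for MRPL16, 0.044 for MRPL45 and 0.0415 for MRPL53. All 6 genes kept the sign of their fold change under each of 5 scalings of the arrays, but MRPS27, MRPL45 and MRPL53 did not pass the adjusted p under quantile or cyclic loess normalization. None of the 6 remained past it when either evening control array or PCA replicate 2 was left out. Without PCA replicate 1, MRPL36 remained past it and MRPS25 joined it, a count of 2. Without either morning control array the count was 3.

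**Figure D1:**
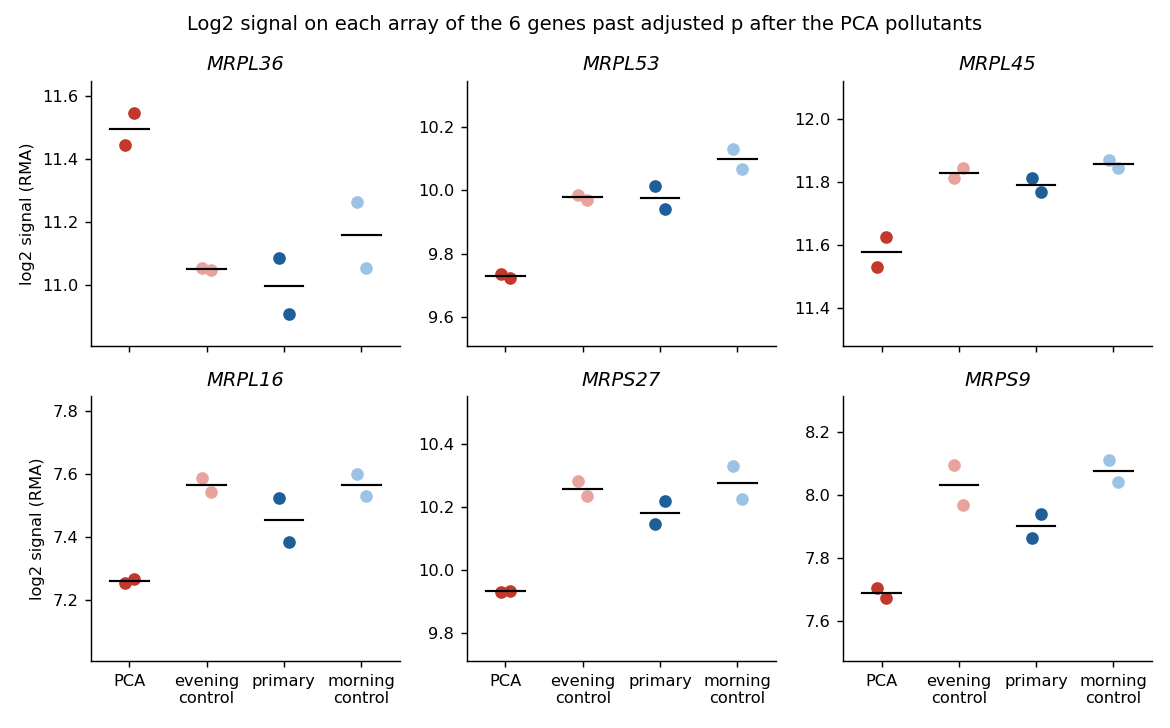
Log2 RMA signal (vertical axis) on each array of the 6 genes past the adjusted p after the PCA pollutants, by group. Points are arrays, lines are means of 2 arrays, and every panel spans the same log2 range; the 2 PCA arrays lie apart from the other 6 in each panel, above them for MRPL36 and below them for the other 5 genes.

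The promoters of these 6 genes are shown because they were the family members past the adjusted p, and because factors known to bind such promoters have motifs that can be read in them. Each line gives 100 bases before and 30 from the start of the gene, 5′ to 3′ on the gene's strand (RefSeq, GRCh38.p14). Capitals mark matches, on either strand, to CCGGAAG (ETS factors), AAGATGGC (YY1), CGCATGCG (the centre of the NRF1 site) or CACGTG (an E-box, bound by MYC among others), and no matches overlapped.
MRPL36, chr5:1799808-1799937, minus strand: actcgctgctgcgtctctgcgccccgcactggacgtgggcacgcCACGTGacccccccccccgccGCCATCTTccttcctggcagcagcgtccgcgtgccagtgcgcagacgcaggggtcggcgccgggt
MRPL53, chr2:74472651-74472780, minus strand: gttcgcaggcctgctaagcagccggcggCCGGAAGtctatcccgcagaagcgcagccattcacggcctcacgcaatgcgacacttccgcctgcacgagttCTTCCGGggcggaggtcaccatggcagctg
MRPL45, chr17:38297068-38297197, plus strand: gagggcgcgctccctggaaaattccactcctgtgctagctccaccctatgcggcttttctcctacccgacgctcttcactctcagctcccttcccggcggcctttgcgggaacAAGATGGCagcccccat
MRPL16, chr11:59810749-59810878, minus strand: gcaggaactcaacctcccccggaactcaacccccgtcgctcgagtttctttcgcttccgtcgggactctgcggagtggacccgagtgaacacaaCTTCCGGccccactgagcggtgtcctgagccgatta
MRPS27, chr5:72320211-72320340, minus strand: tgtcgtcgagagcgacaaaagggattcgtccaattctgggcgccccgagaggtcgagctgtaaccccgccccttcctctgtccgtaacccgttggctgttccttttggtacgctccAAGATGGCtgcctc
MRPS9, chr2:105037969-105038098, plus strand: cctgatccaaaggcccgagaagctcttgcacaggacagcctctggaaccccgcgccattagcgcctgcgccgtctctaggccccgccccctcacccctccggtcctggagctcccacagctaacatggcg

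MRPL53 held a match to the ETS motif on each strand and MRPL16 held 1, whereas MRPL45 and MRPS27 held the YY1 motif downstream of the start. MRPL36 held an E-box and, upstream of the start, a YY1 motif on the opposite strand. The window of MRPS9 held none of these letters.

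Over 250 bases before to 50 after the start, promoters were matched for 66 of the 73 genes. The ETS motif was present in 28 of them (42.4%), against 10.7% of 27305 promoters of all kinds and 14.2% of those of protein-coding genes. The YY1 motif was present in 18 (27.3%), against 3.03% of all promoters and 3.91% of coding ones. The small subunit held the ETS motif in 12 of 25 promoters and the large subunit in 16 of 41, and the YY1 motif in 7 of 25 and 11 of 41.

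Of 37 ETS matches 33 (89.2%) lay within 100 bases before to 30 from the start, against 69.5% of the matches in all promoters. Of 19 YY1 matches 13 (68.4%) lay downstream of the start, against 51.3% in all promoters. In all 39 promoters (59.1%) held an ETS or a YY1 motif, against 13.1% of all promoters, and 7 held both. The NRF1 motif was present in 3 promoters (4.55%), those of MRPL17, MRPL22 and MRPS18C, against 2.19% of all promoters, and the E-box in 6 (9.09%) against 7.43%. A match is a run of letters and not a bound site, and no match says only that these letters were not in the window.

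**Figure D2:**
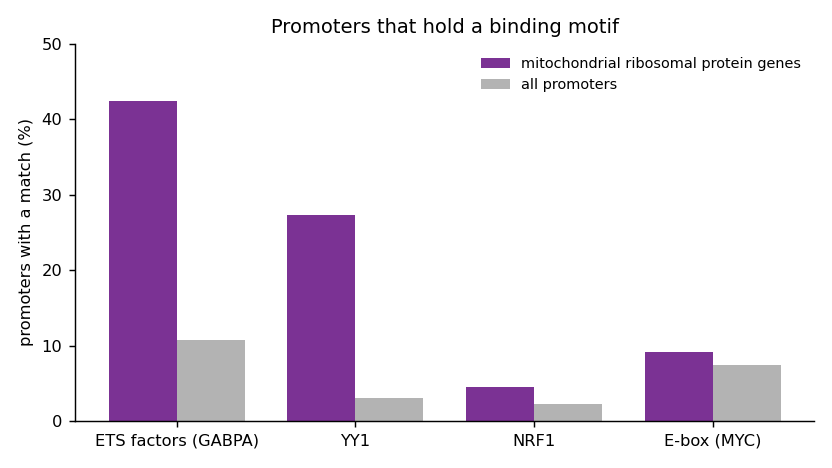
Share of promoters (vertical axis, %) with at least 1 match to each factor's motif on either strand, for the 66 mitochondrial ribosomal protein genes with a promoter sequence and for 27305 promoters of all kinds. The bars stand at 42.4% against 10.7% for the ETS motif and 27.3% against 3.03% for the YY1 motif, and closer together for the NRF1 motif and the E-box.

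The medians of genes with and without an ETS or a YY1 motif lay close together, and no test was made of any motif. The median log2 fold change after the PCA pollutants was -0.10 for the 28 genes with an ETS motif and -0.06 for those without, and -0.06 for the 18 genes with a YY1 motif and -0.08 for those without. The few genes with the other motifs lay farther apart in part. With and without an E-box (6 genes with) the medians were -0.14 and -0.07 after the PCA and -0.15 and -0.07 after the primary pollutants. With and without the NRF1 motif (3 genes with) they were -0.07 and -0.08 after the PCA and -0.23 and -0.07 after the primary pollutants. GABPA, which recognizes the ETS motif, had 2 probe sets that disagreed. The brighter had log2 signals of 8.13 and 8.13 after the PCA pollutants, against 8.74 and 8.55 in the evening control, a log2 fold change of -0.52 ± 0.12 (SE, limma adjusted p = 0.0238). The other had 7.60 and 7.79 after the PCA pollutants, against 7.49 and 7.56 in the evening control, a log2 fold change of 0.17 (limma adjusted p = 0.178). The study lists GABPA among the genes higher after the PCA pollutants, but neither probe set here was higher past the adjusted p. The direction of GABPA is therefore not settled by these arrays.

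The family as a whole lay slightly below its controls in the deposited values, and this small displacement depended on how the arrays were scaled. After the PCA pollutants 24 of the 73 genes were above 0 (49.7% of all genes) and 49 below (50.3% of all genes), with a median log2 fold change of -0.08, against -0.0017 over all genes tested. Most genes of this family are bright, and among the 12866 genes with a signal of at least 100 the median of all genes was -0.06, against -0.08 for the 71 family members at that level. The family median was -0.14 when arrays were centred on their medians, but above 0 after quantile normalization (0.02), cyclic loess normalization (0.03) and scaling to cytoplasmic ribosomal protein genes (0.06). The last of these moved the median of all genes to 0.14, so the family median then also lay below that of all genes. Quantile normalization, which gives all arrays the same spread of signals, left 37 genes above 0 and 36 below. Whether the narrower spread on the PCA arrays bears on the family's displacement was not tested.

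The medians of the large and the small subunit after the PCA pollutants differed by little in the deposited scaling with all arrays. After the PCA pollutants 18 large subunit genes were above 0 and 30 below, with a median of -0.08, and 6 small subunit genes were above 0 and 19 below, with a median of -0.07. Without PCA replicate 1 the medians were -0.0545 for the large and -0.0149 for the small subunit, and without evening control replicate 1 the large subunit median was -0.0458. Under quantile normalization the large subunit median was 0.02 and the small subunit median -0.0047, and both were above 0 under cyclic loess normalization and under scaling to cytoplasmic ribosomal protein genes. The products of MRPS30 and MRPS18A are known from structures of the ribosome to sit in the large subunit despite their names. Moving both there left the medians after the PCA pollutants at -0.08 (50 genes) and -0.07 (23 genes).

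The subunits were also read on each array. Taken as the median deviation from each gene's own mean over the 8 arrays, the large subunit was at -0.081 and -0.045 on the PCA arrays, against 0.0022 and -0.017 on the evening control arrays. The small subunit was at -0.101 and -0.056 on the PCA arrays, against 0.0021 and 0.0063 on the evening control arrays. On every array the difference between the subunits (large less small) was between -0.043 and 0.019.

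**Figure D3:**
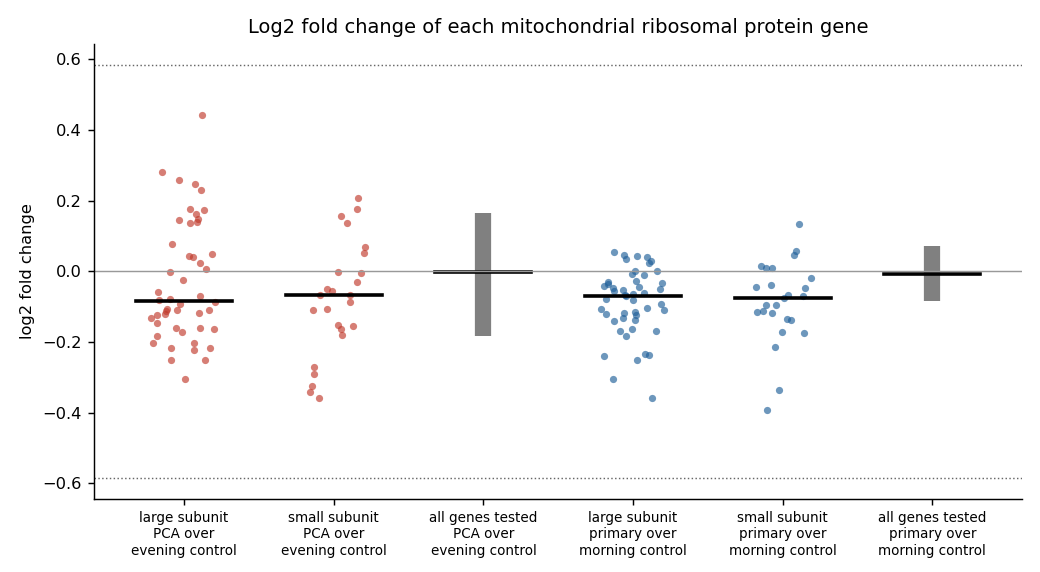
Log2 fold change (vertical axis) of each of the 73 genes in the deposited scaling, by subunit, for the PCA pollutants over the evening control and the primary pollutants over the morning control. Black lines are medians, grey bars span the interquartile range of all genes tested, and dotted lines mark the 1.5-fold limit, which no gene reached. The negative medians turn positive when arrays are scaled to cytoplasmic ribosomal protein genes, which also moves the medians of all genes above 0. For the PCA pollutants they also do so under cyclic loess normalization and, in the large subunit, under quantile normalization.

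Within the large subunit, the 5 genes highest after the PCA pollutants were MRPL36, MRPL12, MRPL54, MRPL41 and MRPL55, and each was above 0 under all 5 scalings. MRPL12, which forms the flexible stalk that recruits translation factors, had log2 signals of 9.58 and 9.75 after the PCA pollutants, against 9.40 and 9.36 in the evening control. Its log2 fold change was 0.28 ± 0.091 (SE, limma adjusted p = 0.0652). MRPL10, which anchors the stalk and was named after its value had been seen, had a log2 fold change of -0.09.

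MRPL41 and MRPL54, found only in mitochondria, had log2 fold changes of 0.25 and 0.26. MRPL41 was at 8.80 and 8.93 after the PCA pollutants, against 8.55 and 8.69 in the evening control, and the groups did not overlap. Of the 73 genes, 21 had both PCA arrays above both evening control arrays, against 31.7% of all genes, and 34 had both below, against 36.6%.

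Within the small subunit, MRPS14 had the lowest fold change after the PCA pollutants. This protein of the head of the subunit had log2 signals of 8.29 and 8.25 after the PCA pollutants, against 8.59 and 8.67 in the evening control, a log2 fold change of -0.36 ± 0.11 (SE, limma adjusted p = 0.0517). MRPS12, a protein of the decoding centre, was at 8.31 and 8.13 after the PCA pollutants, against 8.01 and 8.01 in the evening control. Its log2 fold change was 0.21, the highest of the small subunit, with no overlap between the groups and an adjusted p of 0.109 (limma).

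The mitochondrial ribosome has 3 paralogues of the bacterial protein S18. After the PCA pollutants their log2 fold changes were -0.29 for MRPS18A, -0.11 for MRPS18B and -0.07 for MRPS18C, and after the primary pollutants -0.07, -0.12 and -0.34 in the same order. None passed the adjusted p, and MRPS18C was much dimmer (mean log2 signal 5.8) than MRPS18A (8.4) and MRPS18B (9.1). MRPS30 was at 0.05 and 0.05 for the PCA and the primary pollutants, MRPL57 at -0.11 and -0.24, and MRPL58, a peptidyl-tRNA hydrolase that became part of the large subunit, at -0.06 and -0.03.

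After the primary pollutants 0 of the 73 genes changed and 0 passed the adjusted p (limma), as was so for 0% of the 17381 genes tested. At an unadjusted p under 0.05 the count was 10, all lower (13.7%), against 7.96% of all genes, of which 3.29% were higher and 4.67% lower. The analysis of variance gave 15 of the 73 genes at an unadjusted p under 0.05, a share above the 9.14% of all genes. The family had 15 genes above 0 (47.4% of all genes) and 58 below (52.6% of all genes). Its median was -0.07, against -0.0072 over all genes. Scaling to cytoplasmic ribosomal protein genes put 43 genes above 0 and moved the median of all genes to 0.09. The family median (0.03) then still lay below that of all genes. Quantile and cyclic loess normalization each left 18 genes above 0 and 55 below, with a family median of -0.05.

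MRPS14, low after the PCA pollutants, also had the lowest fold change here. It was at 8.21 and 8.45 after the primary pollutants, against 8.82 and 8.61 in the morning control, a log2 fold change of -0.39 ± 0.11 (SE, limma adjusted p = 0.45). MRPL1, which forms the stalk on the other side of the large subunit, was at 8.35 and 8.38 after the primary pollutants, against 8.79 and 8.65 in the morning control. Its log2 fold change was -0.36 ± 0.094 (SE, limma adjusted p = 0.45). Neither gene's groups overlapped, and neither passed the adjusted p under any of 19 alternatives.

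Another 3 genes near the lower end, MRPS18C, MRPL33 and MRPL32, had log2 fold changes of -0.34, -0.31 and -0.25. Of these MRPS18C was dim, with a mean log2 signal of 5.8 against a minimum of 4.9 for testing. At the upper end MRPS5 had 0.13. In 37 genes both primary arrays lay below both morning control arrays, against 21.7% of all genes, and in 2 both lay above, against 17%.

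In the deposited scaling the morning control stood above the other groups. The median deviation of the family was between -0.014 and 0.0028 on the primary and the evening control arrays, against 0.078 and 0.059 on the morning control arrays. The evening control set against the morning control, with no pollutant in either, gave 9 genes above 0 and 64 below. The family median was -0.07, against 0.0034 over all genes. Scaling to cytoplasmic ribosomal protein genes gave 41 above 0, with a family median of 0.02 and a median of 0.09 over all genes. Quantile normalization gave 10 above 0 and 63 below (family median -0.06), and cyclic loess normalization 9 and 64 (-0.07). Centring arrays on their medians gave 6 and 67 (-0.08). No gene changed or passed the adjusted p between the controls (limma, 0% of 17310 genes), and 5 had an unadjusted p under 0.05, all lower in the evening control, against 5.08% of all genes (2.91% higher, 2.18% lower). Both evening control arrays lay above both morning control arrays in 3 genes (22.1% of all genes) and below them in 38 (19.7% of all genes). The analysis of variance gave 10 of the 73 genes at an unadjusted p under 0.05, a share above the 6.52% of all genes. The 5 past limma's unadjusted p were MRPL21, MRPS18B, MRPS12, MRPL39 and MRPS17.

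MRPL21, a protein of the large subunit, was among them. It was at 7.91 and 7.95 after the primary pollutants, against 8.15 and 8.20 in the morning control, a log2 fold change of -0.24. After the PCA pollutants it was at 7.91 and 7.99, against 7.93 and 7.98 in the evening control. The morning control arrays were above the other 6, which overlapped. Both comparisons with the morning control share its 2 arrays.

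**Figure D4:**
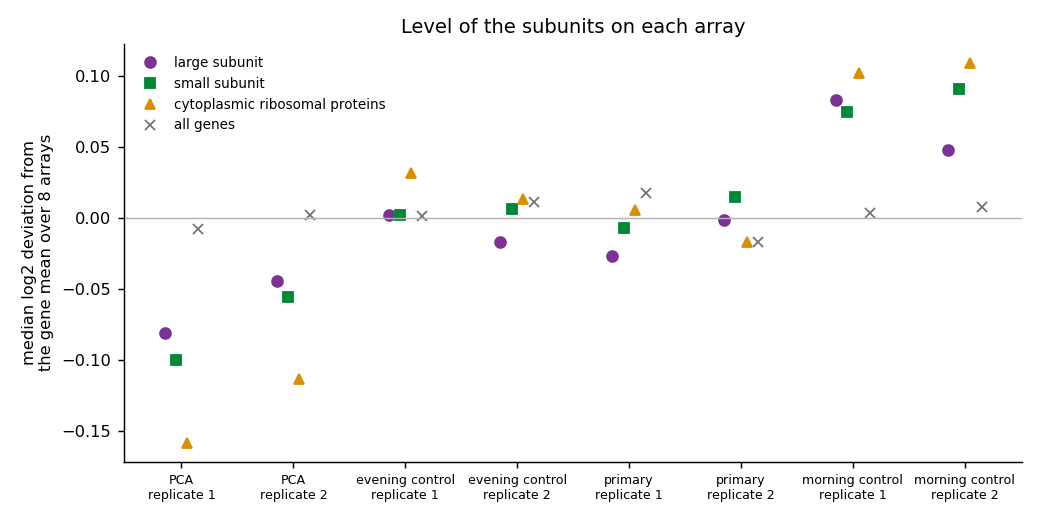
Median log2 deviation from each gene's mean over the 8 arrays (vertical axis), on each array in the deposited scaling, for large subunit, small subunit, cytoplasmic ribosomal protein and all genes. Both subunits lie lowest on the PCA arrays (-0.101 to -0.045) and highest on the morning control arrays (0.047 to 0.091). The cytoplasmic ribosomal protein genes follow with a wider range, and all genes stay within 0.018 of 0. Scaling to the cytoplasmic ribosomal protein genes turns the family's median fold change positive for each mixture, still below that of all genes.

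Whether the responses to the PCA and the primary pollutants differed was tested directly, each taken over its own control. No family member passed (0 of 73 with limma, against 77 of 17540 genes, 0.439%), and 8 had an unadjusted p under 0.05, all with the PCA response above the primary one (11%), against 6.2% of all genes in that direction and 17.6% in either. The difference was above 0 in 42 members (47.3% of all genes) and below 0 in 31 (52.7% of all genes). The analysis of variance gave 9 of the 73 genes at an unadjusted p under 0.05, a share below the 17.7% of all genes. MRPL36 differed most, by 0.61 ± 0.14 (SE), with a limma adjusted p of 0.102. It passed both limits with a minimum signal of 100 or with a trended and robust prior. The adjusted p over its 19 alternatives was between 0.00846 and 0.278.

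The next largest differences were 0.38 for MRPL41, 0.35 for MRPL54, 0.33 for MRPL32 and 0.31 for MRPL12. Those on the opposite side reached -0.29 for MRPS25 and -0.23 for MRPS27. By sign alone in the deposited scaling, 43 genes were below 0 after both mixtures, 9 above 0 after both, 15 above 0 only after the PCA pollutants and 6 only after the primary pollutants.

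The response to the PCA pollutants varied with gene length (the span from start to end of the gene in RefSeq). The 24 shortest genes (677 to 5385 bases) had 12 fold changes above 0 and 12 below, with a median of -0.0091, and the 25 of middle length had 7 above and 18 below, with a median of -0.07. The 24 longest genes (14362 to 100838 bases) had 5 above and 19 below, with a median of -0.16. After the primary pollutants the medians were -0.07, -0.08 and -0.07 from short to long.

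Across the 73 genes, Pearson's r between log10 gene length and the log2 fold change after the PCA pollutants was -0.38 (Spearman's rho -0.396), against -0.216 across 17447 genes. It was -0.686 across the 25 small subunit genes and -0.222 across the 48 large subunit genes. After the primary pollutants r was -0.073 across the 73 genes. Genes are not independent replicates and share the same 4 arrays in each comparison, so these are descriptions. The mean log2 signal had an r of 0.054 with the PCA response across the 73 genes, against -0.362 across 17470 genes.

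**Figure D5:**
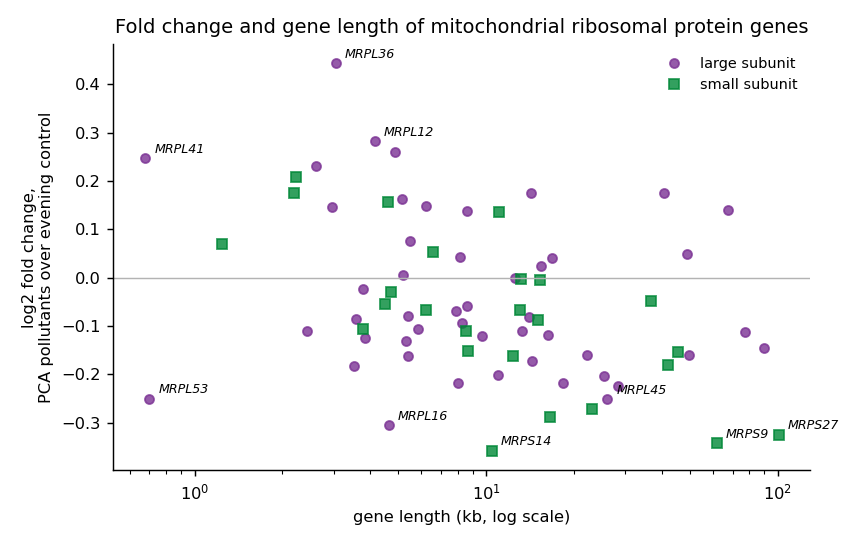
Log2 fold change after the PCA pollutants over the evening control (vertical axis) against gene length in kb (horizontal axis, log scale) for the 73 genes, by subunit. The shortest genes lie on both sides of 0 and the longest mostly below it (5 above, 19 below), MRPS27 and MRPS9 among them, whereas MRPL53 and MRPL16 are short genes that lay low.

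Other genes of mitochondrial translation were read in the same fit. Their counts stand against 19.9% of all genes past the adjusted p (14.1% lower) and 37% at an unadjusted p under 0.05. Only 3.53% of all genes changed, that is passed both limits, so a count of 0 in lists this short says little. Of 26 factors that assemble the mitochondrial ribosome none changed after the PCA pollutants, and 3 (11.5%) passed the adjusted p without the fold limit, all lower. They were NOA1, a GTPase, with log2 signals of 8.49 and 8.45 after the PCA pollutants, against 8.88 and 8.94 in the evening control (log2 fold change -0.44, limma adjusted p = 0.00674), MTERF4 (-0.46) and the pseudouridine synthase RPUSD4 (-0.28). Of 15 translation factors tested 0 changed and 2 (13.3%) were lower past the adjusted p, OXA1L (-0.34), which inserts new proteins into the inner membrane, and the recycling factor MRRF (-0.30).

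Of 21 mitochondrial aminoacyl-tRNA synthetases and partners 0 changed and 5 (23.8%) passed the adjusted p. MARS2 (0.28) was higher past the adjusted p and 4 were lower, among them FARS2 (-0.46), YARS2 (-0.33) and VARS2 (-0.29). Of 13 regulators 0 changed and 2 (15.4%) were lower past the adjusted p, GABPA by its brighter probe set alone and TEFM (-0.47), an elongation factor of mitochondrial transcription. The coactivator PPARGC1A was at -0.41 (limma adjusted p = 0.0576). At an unadjusted p under 0.05 the counts were 9 assembly factors (34.6%), 7 translation factors (46.7%), 11 synthetases (52.4%) and 4 regulators (30.8%), the first and the last of them below the share of all genes.

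Ribosomal proteins of other names, 4 of them tested, had none past the adjusted p and 1 at an unadjusted p under 0.05, GADD45GIP1 (0.27). DAP3, a GTP-binding protein of the small subunit, was at -0.10. The median log2 fold changes after the PCA pollutants were -0.08 for assembly factors, -0.14 for translation factors, -0.14 for synthetases, -0.02 for regulators and -0.09 for ribosomal proteins of other names, in the deposited scaling. After the primary pollutants no gene of these lists passed the adjusted p.

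The cytoplasmic ribosome offered a comparison with the closest kind of gene. Of its 57 genes none changed after the PCA pollutants, against 3.53% of all genes. The adjusted p alone was passed by 7 (12.3%, all lower), led by RPS28 (-0.48) and RPLP2 (-0.48), with 18 (31.6%) at an unadjusted p under 0.05. Both shares were below those of all genes. In the deposited scaling 51 of 57 were below 0, with a median of -0.16 against -0.08 for the mitochondrial family. After the primary pollutants the medians were -0.09 for the cytoplasmic and -0.07 for the mitochondrial genes.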

How the data were processed

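Total RNA from 8 samples of A549 cells was hybridized to Affymetrix Human Gene 1.0 ST arrays. The authors normalized the arrays by robust multichip average, and the deposited values are log2 signals; the submitters' processing notes name Partek 6.4. Control groups were time matched. The members and lists were chosen with earlier results of these data known.

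Probe sets were named through the platform annotation and RefSeq. Of 28869 probe sets, 19310 carried 1 symbol, 1752 several and 7807 none. Among probe sets with a gene's symbol alone, the one with the largest mean over the arrays stood for the gene. MRPL51, MRPS24, MRPS28 and MRPS6 share a probe set with another gene and were not analysed here. MRPL20 and MRPS18B had several probe sets with identical values.

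The 4 groups were fitted together in limma 3.58.1 under R 4.3.3 (group means, 4 residual degrees of freedom, prior 3.4). Probe sets below a signal of 30 on all arrays of a comparison were not tested in it, and p-values were adjusted by Benjamini-Hochberg over all probe sets tested, unnamed ones included. Precision is limited by the number of arrays. The standard error of a member's log2 fold change had a median of 0.078 (0.068 to 0.129). The study's own test was an analysis of variance, run here as an alternative. Other alternatives covered the filter, the scaling, the arrays in the fit, the prior, the probe sets, the replicate block and each array left out.

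Members were named where they were among the 5 highest, the 5 lowest or the 5 of smallest p in a comparison, or were S18 paralogues, MRPS30, MRPL57 or MRPL58, with up to 4 genes of smallest p from each other list. Scripts were tested on simulated data. Promoters were read from RefSeq on GRCh38.p14.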

Additional observations from a re-analysis of the deposited data

How the results depend on the processing

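The count of genes changed after the PCA pollutants (0) became 4 with a 1.2-fold limit and 1 under scaling to cytoplasmic ribosomal protein genes. That scaling turned the genes past both limits over all genes from 153 higher and 464 lower to 449 higher and 191 lower. The count for the difference between responses (0) became 1 with a minimum signal of 100, with a trended and robust prior and with an unadjusted analysis of variance, in each case MRPL36. The 6 genes past the adjusted p after the PCA pollutants became 12 with a minimum signal of 100, 10 with median-centred arrays, 16 with scaling to cytoplasmic ribosomal protein genes (all higher) and 13 with a trended and robust prior. Quantile normalization gave 9 (7 higher, 2 lower) and cyclic loess normalization 8 (6 higher, 2 lower), so their split is opposite to that of the deposited values (1 higher, 5 lower). The share of all genes past the adjusted p alone is not given here under these alternatives. These counts therefore cannot be read as above or below that of all genes. Leaving out 1 array gave 0 to 7, with 0 without either evening control array or PCA replicate 2.

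The large subunit median after the PCA pollutants (-0.0838) became -0.144 with median-centred arrays. It turned positive with scaling to cytoplasmic ribosomal protein genes (0.0614), quantile normalization (0.019) and cyclic loess normalization (0.0329). Leaving out 1 array gave -0.0945 to -0.0458. The small subunit median (-0.0673) became -0.128, 0.0779, -0.00467 and 0.0309 under the same 4 settings in that order, and -0.0977 to -0.0149 with 1 array left out. It was -0.0149 without PCA replicate 1, the farthest of these. After the primary pollutants the large subunit median (-0.0695) became 0.0277 with scaling to cytoplasmic ribosomal protein genes and -0.0453 with quantile normalization, and -0.0792 to -0.0605 with 1 array left out. The small subunit median (-0.0748) became -0.095 with subunits by structure, 0.0224 with scaling to cytoplasmic ribosomal protein genes, -0.0543 with quantile and -0.0517 with cyclic loess normalization, and -0.0938 to -0.0684 with 1 array left out. Scaling to cytoplasmic ribosomal protein genes also moved the median of all genes, to 0.14 after the PCA pollutants and 0.09 after the primary pollutants. Quantile and cyclic loess normalization were added after the data had been seen. The cause of these shifts was not tested.

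No deviation shared by same-numbered arrays was seen, with correlations of deviations between -0.102 and 0.0387. Whether the numbers mark pairs cannot be told from this, and the labels do not say. With the replicate block, 5 genes passed the adjusted p after the PCA pollutants and 0 passed the fold limit as well.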
